A study of Mus musculus with 5 samples.

Results

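The cornified envelope and barrier genes encode the proteins and enzymes from which keratinocytes of the skin build their outer shell. They were chosen by name alone, as protein-coding genes of the small proline-rich (Sprr), late cornified envelope (Lce) and transglutaminase (Tgm) families together with 21 single genes such as Ivl, Lor, Flg, Casp14, Abca12, Ppl and Evpl. The rule found 64 genes among the 55357 of the table. Their transcripts were measured by RNA sequencing in mouse hair follicle stem cells, taken from dorsal skin on postnatal day 75 by a sort gate that required CD34 and excluded Sca1. The 3 PRC1 i2KO libraries came from mice that carried K15-CrePR1 and were Ring1a-/-, Ring1bflox/flox, and the 2 Control libraries from Ring1a-/-, Ring1bflox/flox mice without Cre. Both genotypes were treated topically with 1% RU-486 for 10 days, beginning on postnatal day 50, and the harvest followed 15 days after treatment ended. K15-CrePR1 is a Cre recombinase under a keratin 15 promoter that RU-486 switches on, so Ring1b, a catalytic subunit of the Polycomb complex PRC1, is deleted in keratin 15-expressing cells. Ring1a, its partner subunit, was absent from both groups, so the comparison asks what loss of Ring1b adds, with Cre present in 1 group only.

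Cells that leave the basal layer of the epidermis replace their plasma membrane with the cornified envelope. Involucrin and the plakins envoplakin and periplakin form a first scaffold under the membrane, transglutaminases crosslink loricrin, small proline-rich and late cornified envelope proteins onto it, and ceramides are bound to its outer face. Many of these genes lie side by side in the epidermal differentiation complex, on mouse chromosome 3. Stem cells of the bulge, the part of the follicle where these cells rest, are basal cells and do not cornify.

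Libraries held 9675996, 21102727 and 18657555 estimated reads in PRC1 i2KO replicates 1, 2 and 3, and 8270419 and 32463173 in Control replicates 1 and 3, numbered by their titles. Separate animals are not stated for the libraries, so the p-values below reflect only sample-to-sample spread, which may be technical. All 10 bulge stem cell markers were detected, with 9 called lower in PRC1 i2KO, and their summed level was 4673 to 6646 CPM (counts per library scaled to a common total after TMM scaling) in PRC1 i2KO and 20246 to 21330 CPM in Control. Cd34, whose surface protein was part of the sort gate, stood at 11.0, 12.3 and 37.2 CPM in PRC1 i2KO against 1548 and 1697 CPM in Control, so PRC1 i2KO replicate 3 kept the most. Rnf2, the Ring1b gene, had 48.1, 46.6 and 50.2 CPM in PRC1 i2KO against 67.9 and 57.7 CPM in Control (log2 fold change -0.37, edgeR adjusted p = 0.0363), a count over the whole gene that does not separate reads of a deleted exon from the others.

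PRC1 i2KO cells held more transcripts of most cornified envelope genes that could be measured, from the small proline-rich Sprr1a, 26.9-fold higher, to involucrin (Ivl), 13.9-fold higher, and the lipid transporter Abca12, 7.95-fold higher. The transglutaminase gene Tgm5, abundant in Control cells, was 8.25-fold lower. Of the 64 genes, 38 had enough reads to test, and the quasi-likelihood test of edgeR (called where the adjusted p was under 0.05) put 24 higher, 4 lower and 10 in neither class. Over all 15665 tested genes, 18.8% were called higher and 15.1% lower. Changes of at least 2-fold made up 22 of the 24 rises and all 4 falls, against 10.8% and 6.49% of all genes in those directions. The median log2 fold change of the tested genes was 1.97, and that of all tested genes was -0.01. Every PRC1 i2KO library lay above both controls for 26 of the 38 and below both for 4, against 30.0% and 29.4% of all tested genes.

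A test required about 0.536 CPM in at least 2 libraries, and 11 of the 38 reached that level in PRC1 i2KO alone, so that they could hardly be tested without differing. Of these 11, 7 were called higher and 4 were not called. Tgm7, called lower, reached that level in Control alone. The 2-fold counts, the median and the counts of groups apart given above include all of these genes, and were in part fixed by the filter. Among the 25 that reached the read level in both groups, 17 were higher, 3 lower and 5 neither, where 17.9% of all such genes were higher and 17.0% lower. With any 1 library left out, 18 to 23 members were called higher and 3 to 5 lower, where 12.6% to 19.8% of all genes were higher and 8.70% to 17.4% lower. Leaving out PRC1 i2KO replicate 1 or 2, or Control replicate 1 or 3, in that order, the share of all genes called higher was 15.1%, 13.9%, 15.3% and 12.6% and that called lower 10.8%, 10.2%, 10.5% and 8.70%. In the fits that each left out 1 library, 15 rises were called every time, those of Sprr1a, Sprr2a1, Lce1a1, Lce1a2, Lce1m, Ivl, Flg, Flg2, Tchh, Tgm1, Tgm2, Casp14, Asprv1, Krtdap and Abca12, and so were 3 falls, those of Tgm5, Tgm7 and Calml3. Of the genes just named, Sprr2a1, Lce1a1, Lce1a2 and Casp14 reached the read level in PRC1 i2KO alone and Tgm7 in Control alone. Those fits kept the filter of the full set of libraries, so for these genes a repeated call adds little. DESeq2 called 26 members higher, against 20.4% of all genes, and 4 lower, against 15.8%. limma on log2(TPM + 1) called 18 higher and 4 lower, against 12.0% and 14.3% of all genes, and with a pseudocount of 0.1 the shares of all genes were 12.2% and 13.3%. With no filter on TPM 14 were higher and 4 lower, against 6.07% and 6.98%. In bulk samples such as these, fewer cells of a type and less RNA per cell cannot be told apart.

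**Figure D1:**
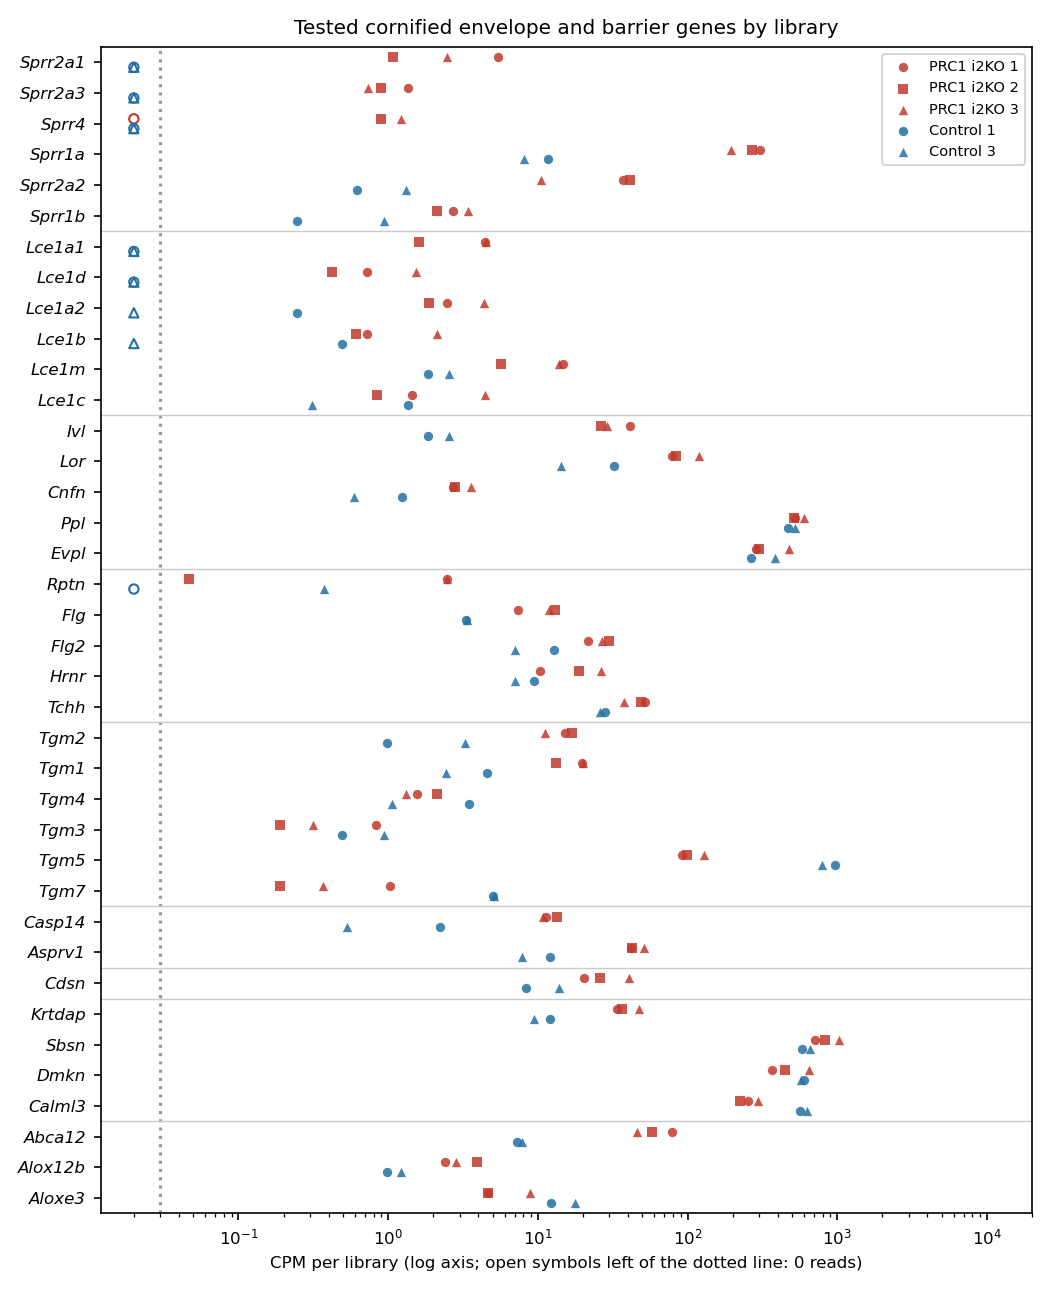
Level of each tested cornified envelope or barrier gene in each library, in CPM on a log axis, with PRC1 i2KO libraries in red and Control libraries in blue, grouped by role. For Sprr1a, Ivl, Abca12 and Tgm5 the groups lie far apart, while for Ppl, Evpl and Dmkn they overlap.

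Small proline-rich proteins are short crosslinked bridges between other envelope proteins, and their summed transcripts were 25.7-fold higher in PRC1 i2KO. Of 15 in the table, 6 were tested, of which 5 rose and 1 was not called, where 18.8% of all tested genes were higher. Sprr1b, Sprr2a1, Sprr2a3 and Sprr4 reached the read level of the test in PRC1 i2KO alone, so that they could hardly be tested without being higher. Sprr1a and Sprr2a2 reached it in both groups. Sprr1a (ENSMUSG00000050359) had 307, 271 and 195 CPM in PRC1 i2KO replicates 1, 2 and 3, against 11.7 and 8.12 CPM in Control replicates 1 and 3. Its lowest PRC1 i2KO library thus stood well above both controls, with a fitted log2 difference of 4.75 (SE 0.28, edgeR adjusted p = 4.28e-05). Sprr2a2 had 37.2, 41.0 and 10.5 CPM in PRC1 i2KO against 0.615 and 1.31 CPM in Control, and PRC1 i2KO replicate 3 was again the lowest of its group (log2 fold change 4.73, SE 0.86, edgeR adjusted p = 0.0135). Sprr2a2 was no longer called without Control replicate 1 (0.0873), without Control replicate 3 (0.117, with a log2 fold change of 5.56) and with no filter on low counts (0.0654).

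Sprr2a1, Sprr2a2 and Sprr2a3 are near-identical copies. In the GENCODE M21 transcripts 96.5% of the 50-base stretches of Sprr2a2 also occur in Sprr2a1, and all 3 genes have fractional read estimates in the deposited table. Their reads are therefore better read together, at 43.9, 43.0 and 13.7 CPM in PRC1 i2KO against 0.615 and 1.31 CPM in Control. Summed into 1 feature, a step chosen after the data were seen, they were 30.0-fold higher (log2 fold change 4.91, SE 0.77, edgeR adjusted p = 0.00752). Apart from that sum, Sprr2a1 and Sprr2a3 had 0 reads in both controls and summed reads at least 32.8-fold and at least 12.6-fold higher in PRC1 i2KO, counted against a floor of 3 reads over the Control group (edgeR adjusted p = 0.00307 and 0.0134, the second lost without Control replicate 3, at 0.094).

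Sprr1b, a close relative of Sprr1a, was rarer, at 2.69, 2.12 and 3.42 CPM in PRC1 i2KO against 0.246 and 0.933 CPM in Control. The groups did not overlap (log2 fold change 2.04, SE 0.66, edgeR adjusted p = 0.039), but the call was lost without Control replicate 1 (0.139) and also when PRC1 i2KO replicate 1 (0.0798), 2 (0.0677) or 3 (0.0947) was left out, and the log2 fold change was 3.43 without Control replicate 3. Sprr4 had 0, 19 and 23 reads in PRC1 i2KO and 0 in both controls, so PRC1 i2KO replicate 1 sat with the controls. It was at least 11.3-fold higher in summed reads and was not called (edgeR adjusted p = 0.0577), though it was without PRC1 i2KO replicate 1 (0.0275), with no filter on low counts (0.0134) and by DESeq2 (0.0354). Among the 9 untested genes, Sprr2b, Sprr2e, Sprr2f, Sprr2j-ps, Sprr2k and Sprr3 had 0 reads in all 5 libraries, and Sprr2d, Sprr2h and Sprr2i had 3, 4 and 9 reads, all in PRC1 i2KO. Summed over the family, the level was 354, 317 and 214 CPM in PRC1 i2KO against 12.6 and 10.4 CPM in Control, and Sprr1a made up most of it.

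The promoters of Sprr1a, Ivl, Tgm1 and Tgm5 are printed because each had the smallest adjusted p in its role and direction, as a bridge (Sprr1a), a scaffold (Ivl) or a crosslinking enzyme (Tgm1 higher, Tgm5 lower). Each is the RefSeq window from 250 bases before to 50 bases after the gene's start, read 5′ to 3′ on the gene's strand in build GRCm38.p6, which is not the build named by the submitters. The positions are chr3:92485832-92486131, chr3:92573686-92573985, chr14:55713443-55713742 and chr2:121085792-121086091, in that order and all on the minus strand. Capitals mark every match on either strand to AP-1 (TGANTCA), the TATA box (TATAAA), the KLF element CACCC and the GRHL core ACCNGTT.
Sprr1a: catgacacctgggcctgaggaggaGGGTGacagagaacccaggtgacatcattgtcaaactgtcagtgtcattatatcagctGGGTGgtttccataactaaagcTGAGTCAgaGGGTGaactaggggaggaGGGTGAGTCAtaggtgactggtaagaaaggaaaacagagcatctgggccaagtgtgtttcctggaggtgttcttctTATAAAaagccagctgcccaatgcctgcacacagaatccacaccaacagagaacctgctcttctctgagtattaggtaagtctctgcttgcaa
Ivl: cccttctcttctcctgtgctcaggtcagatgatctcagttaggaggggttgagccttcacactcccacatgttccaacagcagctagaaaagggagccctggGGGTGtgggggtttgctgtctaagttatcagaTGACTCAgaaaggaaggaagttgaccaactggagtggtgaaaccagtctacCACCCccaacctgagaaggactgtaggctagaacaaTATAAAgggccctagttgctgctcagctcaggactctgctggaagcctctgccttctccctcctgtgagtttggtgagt
Tgm1: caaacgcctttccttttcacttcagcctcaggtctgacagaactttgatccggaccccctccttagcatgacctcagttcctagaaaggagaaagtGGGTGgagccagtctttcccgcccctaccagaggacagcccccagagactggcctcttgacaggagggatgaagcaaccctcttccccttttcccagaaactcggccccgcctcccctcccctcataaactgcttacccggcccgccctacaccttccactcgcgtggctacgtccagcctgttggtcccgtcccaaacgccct
Tgm5: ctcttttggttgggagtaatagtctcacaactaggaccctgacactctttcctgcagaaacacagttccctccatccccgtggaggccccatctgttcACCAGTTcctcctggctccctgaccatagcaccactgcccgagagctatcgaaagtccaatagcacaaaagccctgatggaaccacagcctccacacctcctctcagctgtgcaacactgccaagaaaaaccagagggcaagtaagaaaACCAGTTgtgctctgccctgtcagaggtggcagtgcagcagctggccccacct
Sprr1a held AP-1 matches beginning 146 and 116 bases before its start, the second overlapping a KLF match on the other strand, and Ivl held a single AP-1 match at 116 bases. Each of these genes had a TATA box, at 43 and 29 bases before the start. Tgm1 had a single KLF match, and Tgm5 had only GRHL core matches, at 152 and 3 bases before the start.

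RefSeq windows were matched for 57 of the 64 genes, counting 1 window per gene. An AP-1 match was found in 18 of them (31.6%, against 7.93% of 27025 genes with a window), a TATA box on either strand in 22 (38.6%, against 14.2%), a KLF match in 30 (52.6%, against 56.7%) and a GRHL core in 4 (7.02%, against 8.2%). The windows held a median of 2 CG dinucleotides, against 7 over all genes. Among the 23 members called higher that had a window, 34.8% had an AP-1 match and 39.1% a TATA box. Sprr2b, Sprr2d, Sprr2e, Sprr2f, Sprr2h, Sprr2i and Sprr2k each had both and had too few reads to test. The near-identical Sprr2a1, Sprr2a2 and Sprr2a3 had neither. Whether these letters bear on the rises was not tested. A match is a run of letters and was not tested for binding.

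Late cornified envelope proteins are added to the envelope late in cornification. Of 21 Lce genes, 6 were tested, of which 4 rose and 2 were not called, all at low levels. Over all tested genes, 18.8% were called higher and 15.1% lower. Lce1a1, Lce1a2, Lce1b, Lce1c and Lce1d reached the read level of the test in PRC1 i2KO alone. They could hardly be tested without being higher, so their calls add little, and only Lce1m reached that level in both groups. Lce1m (ENSMUSG00000027912), the most abundant, had 14.7, 5.64 and 13.8 CPM in PRC1 i2KO against 1.85 and 2.55 CPM in Control. PRC1 i2KO replicate 2 was the lowest of its group and still above both controls (log2 fold change 2.31, SE 0.46, edgeR adjusted p = 0.00437). Lce1a1 had 43, 34 and 86 reads in PRC1 i2KO and 0 in both controls, which is at least 43.8-fold higher in summed reads (edgeR adjusted p = 0.001).

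Lce1a2 had 24, 40 and 83 reads in PRC1 i2KO against 2 and 0 in Control, a ratio of 59.3 with an exact 95% interval from 16.1 to 494 that covers counting error only (edgeR adjusted p = 0.00658). The size hung on single libraries, with a log2 fold change of 5.42 in all, 8.91 without Control replicate 1, which leaves a control of 0 reads, and 3.52 without Control replicate 3. Lce1d, at 7, 9 and 29 reads in PRC1 i2KO and 0 in both controls, was at least 12.1-fold higher (edgeR adjusted p = 0.0204, and 0.128 without Control replicate 3, and 0.0619 when leaving out PRC1 i2KO replicate 3). Lce1b and Lce1c were not called (log2 fold changes 2.76 and 1.61, edgeR adjusted p = 0.191 and 0.23), though Lce1b was without Control replicate 1 (0.0331), the only control with reads of it.

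Lce1 genes other than Lce1m share 9.12% to 25.4% of their 50-base stretches of transcript with other members, though their deposited read estimates are whole numbers. At these low read numbers single values are uncertain. The family sum was 27.3, 12.6 and 33.2 CPM in PRC1 i2KO against 4.55 and 2.86 CPM in Control, so the groups did not overlap and PRC1 i2KO replicate 2 was the lowest of its group. Of the 15 untested Lce genes, Lce3a, Lce3b, Lce3e and Lce3f had 0 reads in all 5 libraries. The others had 1 to 25 reads in all, with the most in Lce6a, Lce1h and Lce1f, which had 23, 19 and 18 reads in PRC1 i2KO against 2, 0 and 0 in Control. For Lce6a the interval of the ratio of summed reads ran from 2.29 to 81.2, which covers counting error only. Its reads were 3, 19 and 1 in PRC1 i2KO against 2 and 0 in Control, so most came from PRC1 i2KO replicate 2 and the groups overlapped. Lce3 genes, whose human relatives are known for induction on skin injury, stayed at or near 0 in every library.

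Envelope scaffold genes divided into the precursors that are crosslinked and the plakins that anchor them. Of 5, 3 rose and 2 were not called. Ivl (ENSMUSG00000049128), the early scaffold protein involucrin, had 41.1, 26.6 and 29.2 CPM in PRC1 i2KO against 1.85 and 2.55 CPM in Control, with no overlap (log2 fold change 3.79, SE 0.28, edgeR adjusted p = 1.05e-05). Lor (ENSMUSG00000043165), loricrin, the glycine-rich main protein of mature envelopes, had 78.4, 84.0 and 119 CPM in PRC1 i2KO against 32.2 and 14.2 CPM in Control. Its controls differed by more than 2-fold, and both lay under every PRC1 i2KO library (log2 fold change 2.08, SE 0.43, edgeR adjusted p = 0.0201). The call of Lor was lost without PRC1 i2KO replicate 3 (0.0829) and with no filter on low counts (0.0993), and the log2 fold change was 2.72 without Control replicate 1.

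Cnfn, which encodes cornifelin, was rare and rose, with 2.69, 2.77 and 3.58 CPM in PRC1 i2KO against 1.23 and 0.591 CPM in Control (log2 fold change 1.82, SE 0.58, edgeR adjusted p = 0.0358). Its call was lost without Control replicate 3 (0.212) and when PRC1 i2KO replicate 1 (0.0626), 2 (0.0829) or 3 (0.0914) was left out. Ppl, the plakin periplakin, had 521, 517 and 599 CPM in PRC1 i2KO against 468 and 524 CPM in Control. Evpl, its partner envoplakin, had 285, 300.4 and 477 CPM in PRC1 i2KO against 266 and 385 CPM in Control. Both overlapped between the groups and were not called (log2 fold changes 0.14 with an SE of 0.11 and 0.12 with an SE of 0.28, edgeR adjusted p = 0.39 and 0.787). The sign for Evpl turned to -0.12 without Control replicate 1 and to -0.15 without PRC1 i2KO replicate 3.

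**Figure D2:**
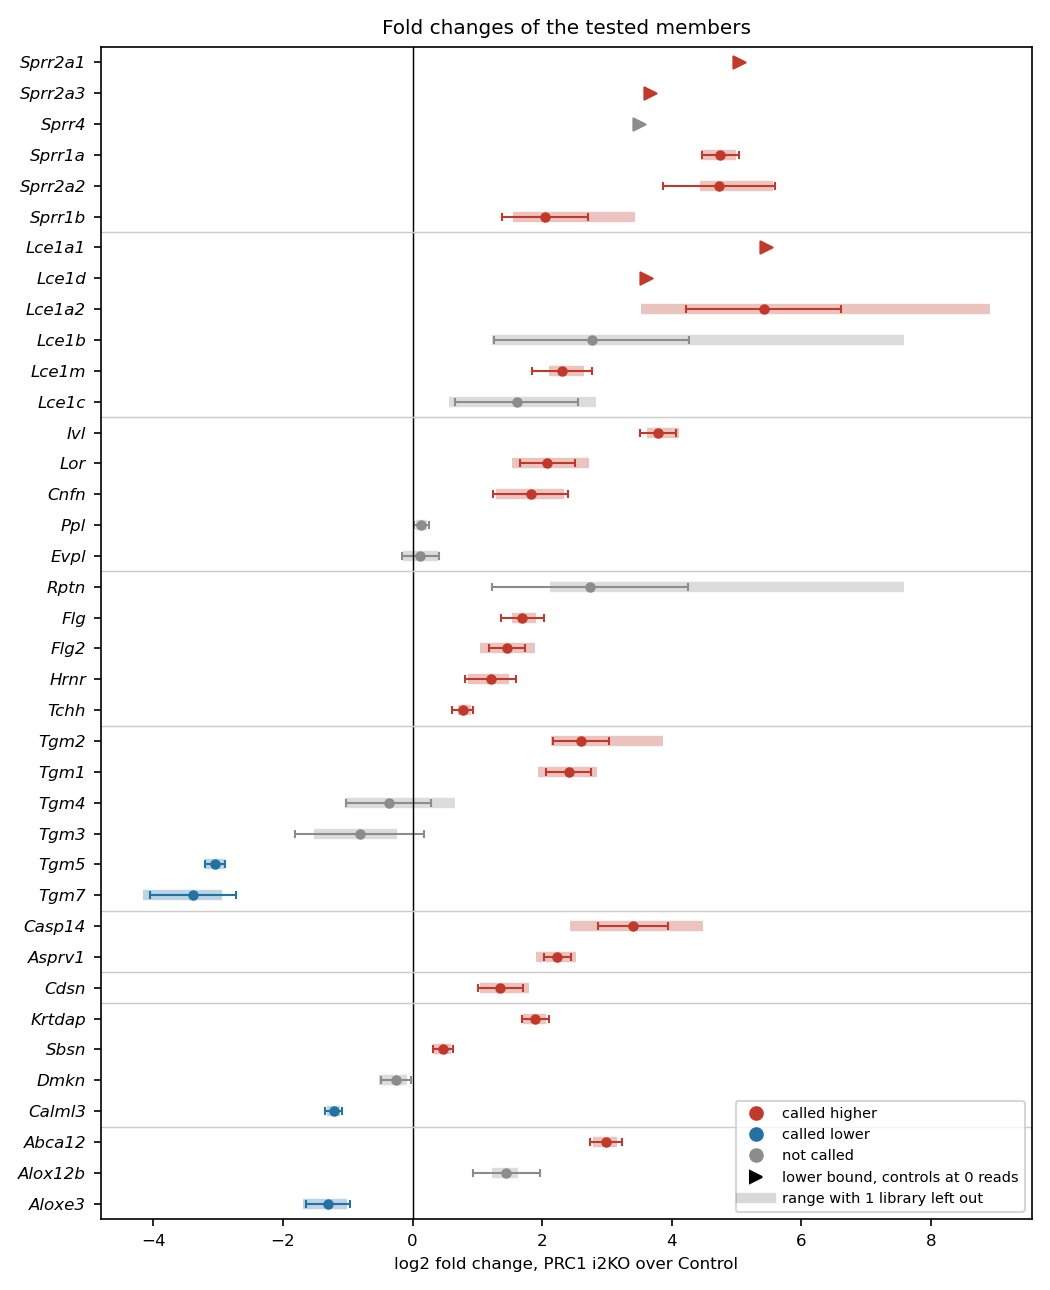
Log2 fold change of each tested gene, PRC1 i2KO over Control, with its SE as thin bars, the range over fits that leave out 1 library as broad bars, and lower bounds as triangles where both controls had 0 reads. Red marks genes called higher, blue those called lower, such as Tgm5 and Calml3, and grey those not called; the broad bars are longest for Lce1a2, Lce1b and Rptn, which had few or no control reads.

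S100-fused proteins fill the cornified cell and bind keratin, and of 6 such genes 4 rose, 1 was not called and 1 was untested. Flg (ENSMUSG00000102439), filaggrin, which packs keratin filaments, had 7.36, 13.02 and 11.8 CPM in PRC1 i2KO against 3.32 and 3.36 CPM in Control (log2 fold change 1.69, SE 0.33, edgeR adjusted p = 0.00364). Flg2, filaggrin 2, had 21.8, 29.9 and 26.7 CPM in PRC1 i2KO against 12.8 and 7.06 CPM in Control (log2 fold change 1.46, SE 0.27, edgeR adjusted p = 0.00297). Neither of them overlapped between the groups on CPM. Tchh, trichohyalin, a protein of the inner root sheath of the follicle, had 51.9, 49.0 and 37.7 CPM in PRC1 i2KO against 27.9 and 26.1 CPM in Control, a smaller rise (log2 fold change 0.78, SE 0.16, edgeR adjusted p = 0.00531).

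Hrnr, hornerin, had 10.3, 18.7 and 26.6 CPM in PRC1 i2KO against 9.48 and 7.03 CPM in Control. PRC1 i2KO replicate 1 stood close to Control replicate 1, and the call (log2 fold change 1.20, SE 0.39, edgeR adjusted p = 0.0469) did not hold when Control replicate 1 (0.0943) or 3 (0.258) or PRC1 i2KO replicate 2 (0.112) or 3 (0.0594) was left out. Rptn, repetin, had 24, 1 and 47 reads in PRC1 i2KO against 0 and 12 in Control, so the groups overlapped through PRC1 i2KO replicate 2 (edgeR adjusted p = 0.209, 0.049 without that library and 0.0331 with no filter on low counts). Tchhl1 had 0 reads in all 5 libraries. On the deposited TPM, which are scaled to transcript length and a fixed total, none of Flg, Flg2, Hrnr and Tchh was called (limma adjusted p = 0.28, 0.066, 0.226 and 0.118). The groups overlapped on TPM for Flg, at 3.07, 6.72 and 3.29 in PRC1 i2KO against 3.75 and 0.99 in Control. They also overlapped for Hrnr, at 1.46, 2.57 and 3.79 against 1.48 and 1.10, and stayed apart for Flg2 and Tchh. Why these calls were lost was not tested. Inner root sheath keratins, scarce in all libraries, had summed levels of 6.11, 4.94 and 5.32 CPM in PRC1 i2KO against 4.43 and 2.46 CPM in Control, so their sum too was higher in every PRC1 i2KO library. Of 7 listed, 3 were tested, Krt27 was called higher, Krt28 and Krt71 were not called, and Krt72 and Krt73 were at 0. The part of such cells in the rise of Tchh was not tested.

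Transglutaminases, the calcium-dependent enzymes that crosslink the envelope, changed in their make-up. Tgm5 (ENSMUSG00000053675), an epidermal transglutaminase, had 91.4, 99.3 and 128 CPM in PRC1 i2KO against 961 and 796 CPM in Control. The groups were far apart, and the fall of 8.25-fold (log2 fold change -3.05, SE 0.16, edgeR adjusted p = 2.32e-06) gave it the smallest adjusted p of all 38 tested genes. Tgm7, its neighbour on chromosome 2, was rarer, at 1.04, 0.188 and 0.369 CPM in PRC1 i2KO against 5.05 and 5.10 CPM in Control, and fell 10.5-fold (log2 fold change -3.39, SE 0.66, edgeR adjusted p = 0.00345, and -4.16 without PRC1 i2KO replicate 1).

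Tgm1 (ENSMUSG00000022218), the membrane-bound enzyme of the differentiating epidermis, had 19.6, 13.1 and 20.0 CPM in PRC1 i2KO against 4.55 and 2.43 CPM in Control and rose 5.33-fold (log2 fold change 2.41, SE 0.35, edgeR adjusted p = 0.000592). Tgm2, tissue transglutaminase, had 15.2, 16.8 and 11.2 CPM in PRC1 i2KO against 0.985 and 3.27 CPM in Control and rose 6.06-fold (log2 fold change 2.60, SE 0.43, edgeR adjusted p = 0.00168, and 3.86 without Control replicate 3). For both genes each PRC1 i2KO library exceeded both controls. Tgm3, an enzyme of hair and cornifying cells, and Tgm4, known from the prostate, stayed under 4 CPM in every library and were not called (log2 fold changes -0.82 and -0.37, edgeR adjusted p = 0.574 and 0.709). The sign for Tgm4 turned to 0.65 without Control replicate 1, and Tgm6 had 0 reads.

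On the TPM scale, which allows levels of genes to be compared, Tgm5 supplied 64.0%, 77.1% and 80.8% of transglutaminase transcripts in PRC1 i2KO against 97.6% and 98.2% in Control. Tgm1 supplied 16.5%, 9.96% and 11.5% in PRC1 i2KO against 0.74% and 0.269% in Control. Tgm5 therefore remained the most abundant of the family in every library. The family total was 93.3, 86.2 and 108 TPM in PRC1 i2KO and 722 and 606 TPM in Control, so the added Tgm1 and Tgm2 transcripts were few beside the Tgm5 transcripts that were missing.

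**Figure D3:**
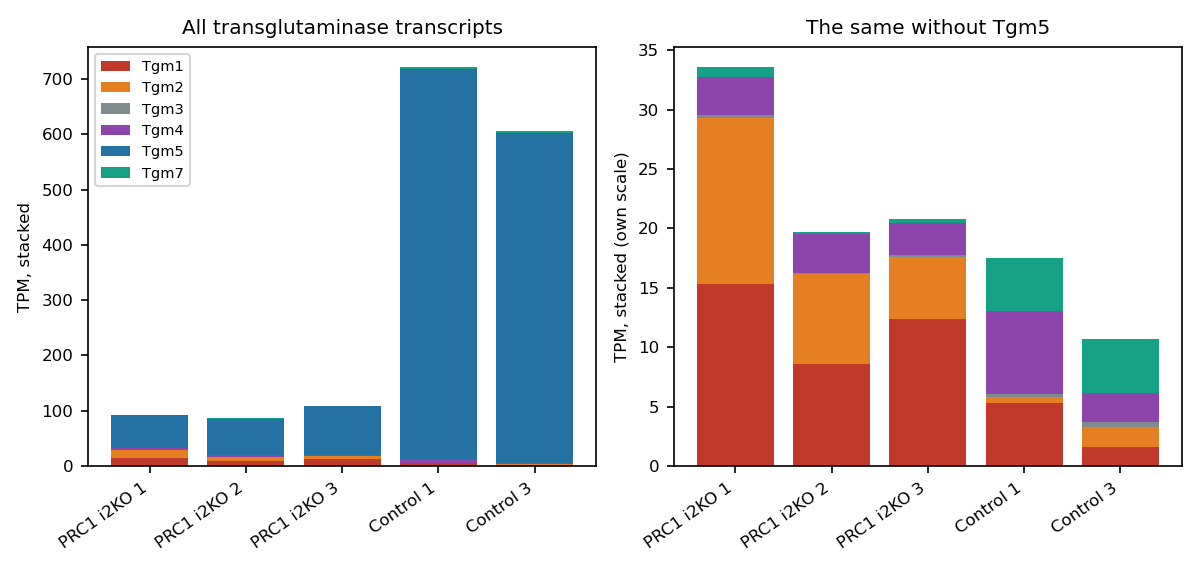
TPM of the transglutaminase genes stacked in each library, with all genes on the left and all but Tgm5 on the right, on its own scale. Tgm5 fills most of every bar on the left, and without it the PRC1 i2KO bars consist mainly of Tgm1 and Tgm2.

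Proteases that process filaggrin rose together. Casp14 (ENSMUSG00000005355), a caspase of cornifying cells, had 11.4, 13.4 and 10.9 CPM in PRC1 i2KO against 2.22 and 0.529 CPM in Control (log2 fold change 3.41, SE 0.54, edgeR adjusted p = 0.00144). Its size depended on which control was kept, at 4.48 without Control replicate 1 and 2.42 without Control replicate 3. Asprv1, the aspartic protease that cleaves profilaggrin, had 41.7, 42.8 and 51.2 CPM in PRC1 i2KO against 12.1 and 7.84 CPM in Control (log2 fold change 2.24, SE 0.21, edgeR adjusted p = 4.94e-05). Neither overlapped between the groups. Cdsn, corneodesmosin, which glues cornified cells to each other, had 20.2, 26.1 and 40.5 CPM in PRC1 i2KO against 8.37 and 13.7 CPM in Control (log2 fold change 1.35, SE 0.34, edgeR adjusted p = 0.0207). The call of Cdsn was lost without Control replicate 1 (0.087) and on TPM (limma adjusted p = 0.0592).

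Secreted and calcium-binding proteins of the upper layers were abundant in both groups and went different ways. Krtdap, a keratinocyte differentiation-associated protein, had 33.9, 36.3 and 47.1 CPM in PRC1 i2KO against 12.1 and 9.36 CPM in Control and rose 3.72-fold (log2 fold change 1.90, SE 0.21, edgeR adjusted p = 0.000112). Sbsn, suprabasin, rose slightly, with 713, 825 and 1027 CPM in PRC1 i2KO against 583 and 653 CPM in Control (log2 fold change 0.47, SE 0.15, edgeR adjusted p = 0.042). Sbsn was no longer called when Control replicate 1 (0.2) or 3 (0.0942) or PRC1 i2KO replicate 2 (0.105) was left out and on TPM (limma adjusted p = 0.133), and the reads of Sbsn are fractional estimates.

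Dmkn, dermokine, which lies between these genes on chromosome 7, had 366, 447 and 649 CPM in PRC1 i2KO against 597 and 569 CPM in Control. The groups overlapped through PRC1 i2KO replicate 3, and Dmkn was not called (log2 fold change -0.26, SE 0.23, edgeR adjusted p = 0.446), but it was lower without that library (-0.51, 0.0031) and on TPM (-1.16, limma adjusted p = 0.0084). Calml3, a calmodulin-like calcium sensor of epithelia, had 253, 222 and 294 CPM in PRC1 i2KO against 561 and 631 CPM in Control and was lower in each PRC1 i2KO library (log2 fold change -1.22, SE 0.13, edgeR adjusted p = 9.31e-05).

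Barrier lipid genes were split 1 each way. Abca12 (ENSMUSG00000050296), which loads lipids into the granules that keratinocytes secrete, had 78.6, 57.8 and 45.7 CPM in PRC1 i2KO against 7.26 and 7.81 CPM in Control (log2 fold change 2.99, SE 0.25, edgeR adjusted p = 4.22e-05). Alox12b and Aloxe3, neighbours on chromosome 11, encode lipoxygenases that act in sequence on ceramide-bound linoleate. Aloxe3 had 4.66, 4.65 and 8.84 CPM in PRC1 i2KO against 12.3 and 17.6 CPM in Control and fell 2.47-fold (log2 fold change -1.31, SE 0.33, edgeR adjusted p = 0.0139). Aloxe3 was no longer called without Control replicate 3 (0.138), on leaving out PRC1 i2KO replicate 1 (0.0529) or 2 (0.0557), and on TPM (limma adjusted p = 0.0884).

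Alox12b, the first enzyme of that pair, had 2.38, 3.90 and 2.84 CPM in PRC1 i2KO against 0.985 and 1.21 CPM in Control. No library overlapped between the groups, but the difference did not pass (log2 fold change 1.45, SE 0.52, edgeR adjusted p = 0.056), and it did by DESeq2 (0.0265) and with a stricter filter on low counts (0.0469). Alox8, the next gene along the chromosome and no member, is named after its values were seen: it had 2.38, 3.39 and 6.0 CPM in PRC1 i2KO against 27.1 and 34.6 CPM in Control (log2 fold change -2.94, edgeR adjusted p = 0.000216).

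Although most measurable genes rose, their summed level did not separate the groups. It was 3057, 3181 and 3918 CPM in PRC1 i2KO against 3612 and 3704 CPM in Control. The order of the genes was different instead. In PRC1 i2KO the highest mean levels were those of Sbsn, Dmkn, Sprr1a and Krtdap, at 1032, 780, 671 and 401 TPM, and the library range of Dmkn overlapped those of both Sbsn and Sprr1a. In Control they were those of Dmkn, Calml3, Sbsn and Tgm5, at 1708, 856, 773 and 650 TPM. Sprr1a supplied 21.5%, 18.4% and 11.6% of the summed TPM of the 64 genes in PRC1 i2KO, against 0.75% and 0.54% in Control.

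The PRC1 i2KO libraries also differed among themselves. Of the 24 genes that rose, 12 were highest in PRC1 i2KO replicate 3, 7 in replicate 1 and 5 in replicate 2, and 7, 9 and 8 were lowest in replicates 3, 1 and 2. Replicate 3 had the highest Lor, Cdsn, Hrnr, Sbsn and Krtdap and the lowest Sprr1a, Sprr2a2, Abca12 and Tchh of the group. The highest of the 3 libraries was at most 2-fold above the lowest for most of the 24, with 8 exceptions that included Sprr2a1, Sprr2a2, Lce1d, Lce1a1 and Lce1m.

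**Figure D4:**
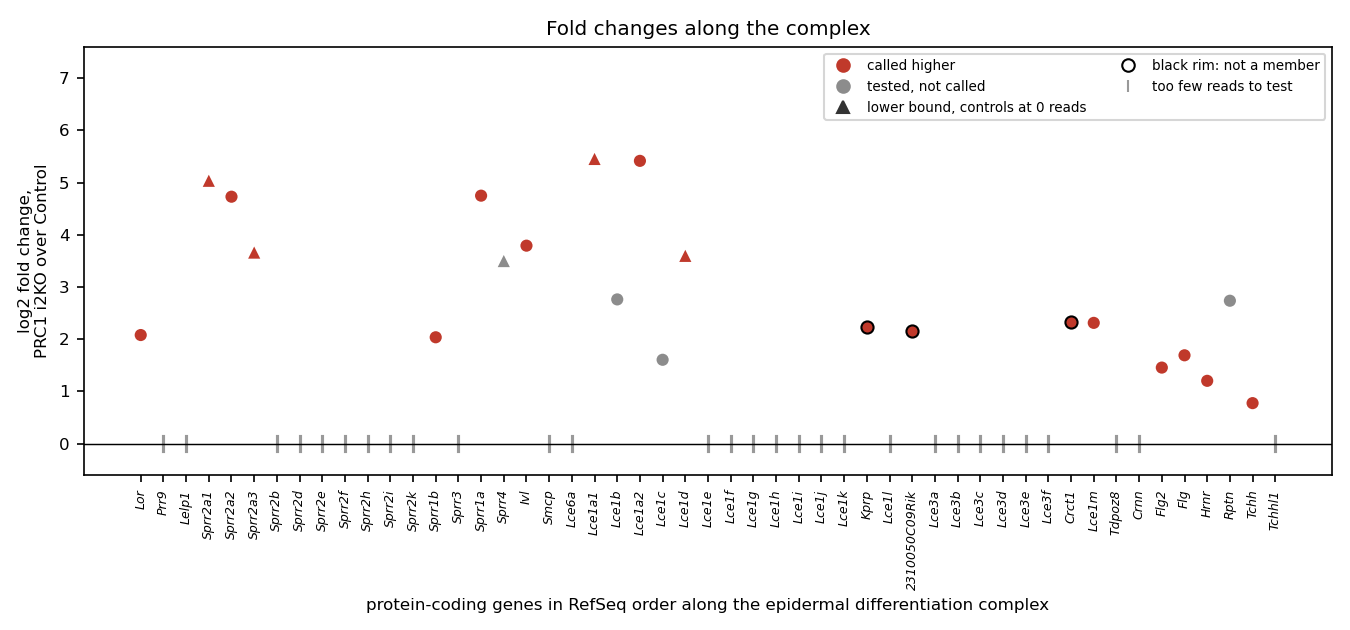
Log2 fold change, PRC1 i2KO over Control, of protein-coding genes in RefSeq order along chromosome 3 from Lor to Tchhl1, with triangles for lower bounds, black rims for genes outside the chosen set and short grey ticks for genes with too few reads. All tested genes lie above 0, and the stretches of grey ticks hold the remaining Sprr2 genes and most Lce genes.

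The epidermal differentiation complex holds 44 of the 64 genes. RefSeq lists 51 protein-coding genes from Lor to Tchhl1, of which 43 belong to the set, with Sprr2j-ps left out as it is not listed as coding. In that stretch 19 of the 43 were tested. Of them 15 rose, 4 were not called and none fell, where 18.8% of all tested genes were higher and 15.1% lower. Of these 19, 10 reached the read level in PRC1 i2KO alone, so that they could hardly be tested without being higher, and 6 of those rose. The other 9 reached it in both groups, and all 9 rose, where 17.9% of all such genes were higher and 17.0% lower. Of the 8 other genes there, 3 were tested and all rose, namely Kprp, 2310050C09Rik and Crct1 (log2 fold changes 2.24, 2.16 and 2.34, edgeR adjusted p = 0.0043, 0.00162 and 0.0148). Of the 20 members on other chromosomes, 19 were tested, of which 9 rose, 4 fell and 6 were not called. Of these, 16 reached the read level in both groups, with 8 higher, 3 lower and 5 not called. Whether the place on chromosome 3 mattered was not tested, since members at both places were chosen by name.

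Other genes of the barrier were read from lists chosen by function, with earlier results of these data known. The counts of these lists and of the cell markers below stand beside 18.8% of all tested genes called higher and 15.1% lower. Of 27 ceramide and barrier lipid genes tested, 16 rose, 3 fell and 8 were not called, with a median log2 fold change of 1.80. Fa2h, which hydroxylates the fatty acids of ceramides, had 265, 259 and 258 CPM in PRC1 i2KO against 10.7 and 8.12 CPM in Control (log2 fold change 4.83, edgeR adjusted p = 8.41e-08). Slc27a4, a fatty acid transporter, and Acer1, an epidermal ceramidase, rose by 2.15 and 3.36 on the log2 scale (edgeR adjusted p = 2.87e-06 and 6.58e-06). Fa2h is also a gene of sebaceous glands, whose 10 markers all rose, with sums of 2544 to 3190 CPM in PRC1 i2KO and 232 to 245 CPM in Control, and their part in these rises was not tested.

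Of 19 desquamation and processing genes tested, 11 rose, 1 fell and 7 were not called, with a median of 0.88. They were led by Cst6, a protease inhibitor whose gene is also an upper follicle marker, Spink5, an inhibitor of kallikreins, and St14, the membrane protease matriptase (log2 fold changes 5.63, 1.95 and 1.34, edgeR adjusted p = 1.91e-08, 8.96e-06 and 2.35e-05). Spink5 had 73.1, 90.6 and 90.7 CPM in PRC1 i2KO against 22.2 and 21.7 CPM in Control. Padi1, Padi2, Padi3 and Padi4, the deiminases that modify filaggrin and trichohyalin, had too few reads to test.

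Of 14 tested genes of the complex outside the chosen set, which included S100 genes beyond its ends, 8 rose, 5 fell and 1 was not called, with a median of 0.93. S100a14 and S100a16, which encode calcium-binding proteins, and Pglyrp3, a peptidoglycan recognition protein, were called with the smallest adjusted p (log2 fold changes 1.51, 0.80 and 3.58, edgeR adjusted p = 2.48e-05, 0.000394 and 0.000657). The 5 that fell were all S100 genes, namely S100a3, S100a4, S100a6, S100a7a and S100a10, named after their values were seen, so genes near the stretch from Lor to Tchhl1 did not all move upward.

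Of 29 transcription factors known to act in keratinocyte differentiation, 11 rose, 7 fell and 11 were not called, with a median of 0.36. Maf fell by 2.58 on the log2 scale, while Cebpa and Gata6, of which Gata6 marks the upper follicle, rose by 2.19 and 4.31 (edgeR adjusted p = 6.4e-07, 8.32e-07 and 2.09e-06). Maf had 49.7, 52.6 and 61.0 CPM in PRC1 i2KO against 320 and 334 CPM in Control. Grhl3 and Zfp750, regulators of late barrier genes named after their values were seen, rose by 4.14 and 4.13 (edgeR adjusted p = 4.52e-05 and 6.86e-06), whereas Klf4, likewise named, fell by 1.15 (edgeR adjusted p = 0.0209).

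Markers of other cells moved beside the envelope genes. Of 9 suprabasal epidermis markers outside the set, 7 rose and 2 were not called, with sums of 1909, 2518 and 2751 CPM in PRC1 i2KO against 655 and 610 CPM in Control. Among them Krt10, a keratin of suprabasal cells, had 656, 975 and 1145 CPM in PRC1 i2KO against 272 and 244 CPM in Control, while Krt2 and Mt4, which mark late suprabasal cells, stayed under 4 CPM in every library. Of 9 upper follicle markers 8 rose, with sums of 5599 to 6473 CPM in PRC1 i2KO and 297 to 335 CPM in Control. Hair shaft keratins were at or near 0, with sums up to 1.18 CPM and Krt33b, Krt34, Krt81 and Krt86 at 0. Immune markers summed to 86.4, 102 and 67.8 CPM in PRC1 i2KO against 27.3 and 21.4 CPM in Control, nearly all of it Cd74, the only one of 4 tested that was called. Melanocyte markers summed to 24.8, 26.4 and 22.2 CPM in PRC1 i2KO against 6.52 and 4.60 CPM in Control, with 1 of 3 tested, Dct, called higher. Fibroblast markers summed to 33.0, 32.9 and 32.7 CPM in PRC1 i2KO against 73.8 and 71.8 CPM in Control, with 3 of 4 tested lower and 1 higher. How far such cells contributed to the rises of envelope genes was not tested.

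**Figure D5:**
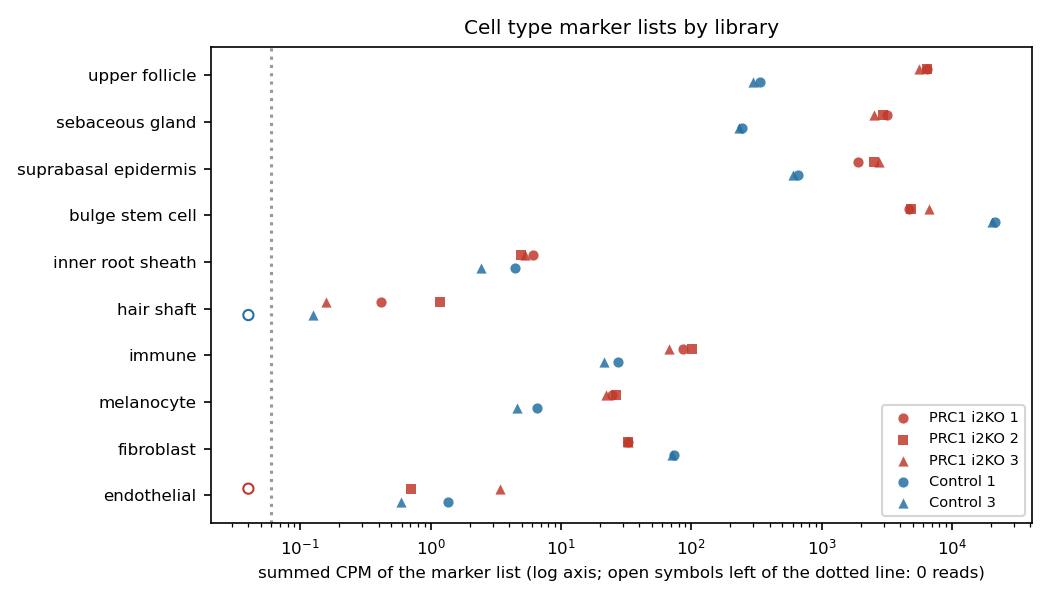
Summed CPM of 10 cell type marker lists in each library, on a log axis, with PRC1 i2KO libraries in red and Control libraries in blue. The upper follicle, sebaceous gland, suprabasal, inner root sheath, immune and melanocyte sums are higher in every PRC1 i2KO library than in either control. The bulge and fibroblast sums are lower, and the endothelial sums overlap. Hair shaft sums are near 0 in all libraries, with 0.158 CPM in PRC1 i2KO replicate 3 against 0.124 CPM in Control replicate 3.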

How the data were processed

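RNA was measured in sorted hair follicle stem cells of 3 PRC1 i2KO and 2 Control samples, with 50000 cells per sample and 50 ng of RNA per polyadenylate-selected library, per the labels' protocols. The authors deposited 1 table with expected counts and TPM for each library, per the file headers. TPM are scaled to transcript length and a fixed total, and so keep no depth. Among the tools in the submitters' processing notes are RSEM 1.3.3, STAR 2.7.9a and DESeq2 1.38.2, with mm39 as the build and no roles; annotation and strandedness were not stated. Expected counts divide shared reads among close copies, whose single values are therefore uncertain, and 6 members have fractional estimates. Column CF3 was taken as Control replicate 3 by its title, although the description of that sample has another number.

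Counts were rounded and fitted across all genes with edgeR 4.0.16 in R 4.3.3 (filterByExpr, TMM, robust quasi-likelihood F test with genotype as the term, Benjamini-Hochberg over 15665 genes, called under 0.05). The SE is the log2 fold change divided by the square root of F. Floors and intervals cover counting error only. Alternatives used DESeq2 1.42.0, limma 3.58.1 on log2(TPM + 1) or log2(TPM + 0.1), library totals, other filters, a replicate block and fits without each library; summing the copies was chosen after seeing the data. The fit was also run on simulated data that gave every gene the same dispersion, and no result here rests on that run. Members and lists were chosen with earlier results of these data known. All tested members are named, with library values from a mean of 5 CPM, and also for rarer members where a result turned on them; up to 3 called genes with the smallest adjusted p stand for each list. Library pairs within groups differed beyond counting noise (9.80 to 39.0 as chi-square over its degrees of freedom), so none were merged.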

Additional observations from a re-analysis of the deposited data

How the results depend on the processing

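The counts of members called higher and lower (24 and 4) stayed within 1.5 times under all alternatives run except 1. On log2(TPM + 1) with no filter 14 were higher and 4 lower, and with the filter 18 and 4. On TPM the median of all genes was shifted by -0.16 in log2 units (limma). Against that shift stand the values of Evpl, at -0.062 with a pseudocount of 1, with or without the filter, and -0.063 with 0.1, and of Ppl, at -0.036 and -0.037; both genes were slightly positive on counts, at 0.12 and 0.14. With 1 library left out, Evpl ranged from -0.15 to 0.41 and Tgm4 from -1.04 to 0.65, and 18 to 23 members were higher and 3 to 5 lower. Counts of calls were 26 and 4 by DESeq2, and 24 and 4 with library totals, no filter or a stricter filter. They were 21 and 4 with copies summed, which leaves fewer features. That step summed Sprr2a1, Sprr2a2 and Sprr2a3, and also Lce1a1 with Lce1a2, although only 9.79% of the 50-base stretches of Lce1a1 occur in Lce1a2.

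Replicate numbers 1 and 3 occur in both groups, but nothing in the labels ties same-numbered samples, and their deviations from the group means correlated at 0.07 and 0.11. With the replicate block 18 members were higher and 4 lower, against 16.1% and 12.1% of all genes. With 2 shared numbers that fit has little to estimate spread from. Depth limits the Lce and Sprr2 genes most: 26 members had too few reads to test, 12 of them with 0 reads in all 5 libraries.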

Other observations

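For Dmkn the CPM computed from the counts and the deposited TPM differed. Its CPM per TPM was 0.594, 0.633 and 0.637 in PRC1 i2KO against 0.338 and 0.345 in Control, a log2 ratio of 0.86, where most single-copy members such as Sprr1a and Evpl moved by 0.16 and 0.17, as the median gene did. Dmkn was not alone, since CPM per TPM varied within groups for other members such as Flg, Tgm1 and Tgm2. For Flg it was 2.40, 1.94 and 3.60 in PRC1 i2KO against 0.886 and 3.39 in Control. For Tgm1 it was 0.853 and 1.49 in Control, and for Tgm2 it was 1.09, 2.22 and 2.16 in PRC1 i2KO. CPM per TPM rises with the transcript length over which a gene's reads are spread, and transcript-level values were not analysed here.

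Neighbouring members outside the epidermal differentiation complex did not always move together. Tgm5 and Tgm7, adjacent on chromosome 2, both fell. Sbsn, Dmkn and Krtdap, in a row on chromosome 7, rose, were not called and rose, in that order. Of Aloxe3, Alox12b and Alox8 on chromosome 11, Aloxe3 and Alox8 fell, and Alox12b had a positive log2 fold change of 1.45 that did not pass.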
